A study of Mus musculus with 12 samples.

Results

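Leukocytes leave the blood through a sequence of contacts with the vessel wall, and 9 genes of that sequence were followed here through 3 mouse models of house dust mite asthma. The genes were taken by symbol: the endothelial selectins Sele and Selp, the selectin ligand Selplg, the endothelial immunoglobulin-type ligands Icam1 and Vcam1, and the leukocyte integrin chains Itga4, Itgb2, Itgam and Itgax. Of the 9 symbols, 8 had a probe set annotated to that gene alone, out of 19937 such genes on the array. Selp had none in the annotation used and was not analysed here. Each of the 8 had 1 probe set of this kind, so no choice between probe sets arose.

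RNA from whole lung of 12 Balb/c mice had been hybridised to Affymetrix mouse gene arrays, 1 array per mouse and 3 mice per group. Neutrophilic mice had 4 weekly intranasal doses of mite extract with 7.5 DU of each allergen (Der f and Der p). Mixed mice had the same schedule at 0.75 DU of each. Eosinophilic mice had 3 intraperitoneal injections of extract at 0.75 DU of each allergen, adsorbed to 1.5 mg of aluminium hydroxide, and then intranasal challenge with a similar dose on days 26 to 28. Control mice had PBS alone into the nose. DU are the development units in which the supplier standardised the extract. The labels give neither age nor sex, and name no genetic change. The eosinophilic group differs from the mixed group in route, adjuvant and schedule together, and the controls had no injections and no alum.

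As background, selectins on activated endothelium catch leukocytes by the sugars on ligands such as PSGL-1 (Selplg) and let them roll. Chemokines then switch on leukocyte integrins, which bind ICAM-1 and VCAM-1 and bring the cells to a halt. E-selectin, ICAM-1 and VCAM-1 are classical products of endothelium stimulated by TNF or IL-1, and VCAM-1 is also induced by IL-4 and IL-13. Neutrophils use mainly the Itgb2 integrins, while eosinophils and lymphocytes also carry the Itga4 integrin that binds VCAM-1. Tissue RNA measures all cells of the lung, so that more cells of a type and more RNA per cell cannot be told apart.

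Values are log2 intensities, and each probe set is compared only with itself across arrays. The array of eosinophilic mouse 7 stood apart over the whole probe set table. The SD of its values was 0.995 log2 and its correlation with the other arrays' median profile was 0.356, against SDs of 1.51 to 2.04 and correlations of 0.863 to 0.980 for the remaining 11. On it the 8 genes all lay between 4.88 and 6.53. The next lowest SDs, 1.52 and 1.51, belonged to eosinophilic mouse 9 and to neutrophilic mouse 23. Lung epithelial markers such as Sftpc and Scgb1a1 had list medians of 6.63 on mouse 7 and 10.7 and 11.5 in the other eosinophilic mice, and of 10.99 to 12.2 in the other 3 groups. limma pools the spread over all groups, so mouse 7 enters the error of every comparison: the SE of the neutrophilic Selplg difference was 0.79 log2 with it and 0.31 without it. Results are therefore given with all 12 arrays and without mouse 7. The 3 comparisons with control share the same control arrays. A call means an adjusted p under 0.05, with the Benjamini-Hochberg adjustment over all 19937 genes.

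**Figure D1:**
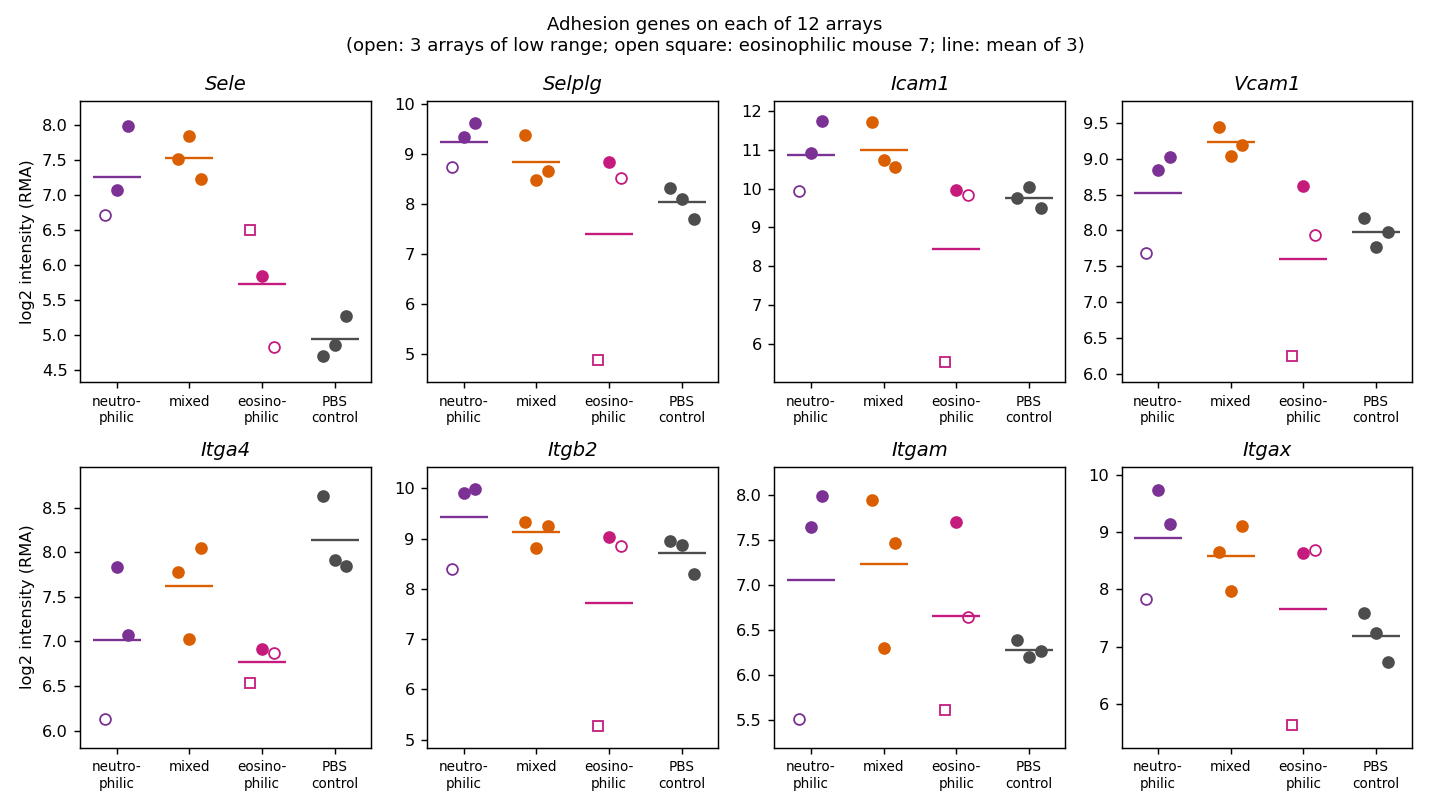
Log2 intensity of the 8 adhesion genes on each array, by group, with a line at the mean of 3 mice. Open symbols mark the 3 arrays of low range and the open square is eosinophilic mouse 7. Sele is the gene whose neutrophilic and mixed values, 6.71 to 7.97, all lie above every eosinophilic and control value.

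Sele encodes E-selectin, the adhesion molecule made almost solely by activated endothelium, and it was the 1 adhesion gene called with all 12 arrays. It measured 6.71, 7.06 and 7.97 in the neutrophilic mice and 7.51, 7.84 and 7.23 in the mixed mice. The eosinophilic mice measured 6.50 (mouse 7), 5.84 and 4.83, and the controls 4.70, 4.86 and 5.28. Neither intranasal group overlapped the controls, and eosinophilic mouse 9 lay inside the control range. Sele rose 4.93-fold in neutrophilic lung (log2 2.30, SE 0.43, limma, adjusted p = 0.0200, n = 3 and 3) and 5.97-fold in mixed lung (log2 2.58, SE 0.43, limma, adjusted p = 0.0232, n = 3 and 3). In eosinophilic lung the difference from control was log2 0.78 (SE 0.43, adjusted p = 0.230), and log2 0.39 (SE 0.40, adjusted p = 0.627) without mouse 7.

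Sele was thus 1 of 8 adhesion genes called in each intranasal group. Of all genes 2.11% were called in neutrophilic lung (0.662% as higher) and 0.471% in mixed lung (0.326% as higher), and the Sele differences lay at percentiles 99.4 and 99.5 of all genes. Without mouse 7 the adjusted p of Sele was 0.00167 in neutrophilic and 0.00156 in mixed lung, where 9.47% and 2.99% of all genes were called (2.24% and 1.41% as higher). The 12-array call in neutrophilic lung was lost without neutrophilic mouse 24 (adjusted p = 0.0791) or mouse 25 (0.0926), and without control mouse 1 (0.119), 2 (0.107) or 3 (0.0514). In mixed lung it was lost without any 1 of the 3 mixed mice (mouse 15, 0.107, mouse 16, 0.124, mouse 17, 0.0855) or of the 3 controls (mouse 1, 0.155, mouse 2, 0.156, mouse 3, 0.0747). Quantile normalization also ended the call in neutrophilic (log2 2.20, adjusted p = 0.121) and mixed lung (log2 2.30, adjusted p = 0.204), and centring each array on its median ended it in mixed lung (log2 2.53, adjusted p = 0.0607). In the 11 fits that lost the call on leaving out 1 array, the log2 difference stayed between 1.94 and 2.74. The share of all genes called was at most 0.787% in those 11. Without neutrophilic mouse 23, 1 of 8 adhesion genes was still called in neutrophilic lung, beside 1.83% of all genes. A moderated F test over the 4 groups also called Sele (adjusted p = 0.0302, 0.883% of all genes called) and none of the other 7; without mouse 7 it gave Sele an adjusted p of 0.00181, again alone among the 8, with 4.6% of all genes called.

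The upstream sequences of Sele and Icam1 are shown because these genes are textbook targets of NF-kB in stimulated endothelium. They are the 200 bases before the start in the RefSeq promoter table (GRCm38.p6), chr1:164048034-164048233 and chr9:21015740-21015939, both on the + strand. The table held 6 of the 9 genes. Capitals mark GGANNTTCC (a form of the NF-kB site), TGANTCA (the AP-1 form) and TATAAA, each searched on both strands.
Sele: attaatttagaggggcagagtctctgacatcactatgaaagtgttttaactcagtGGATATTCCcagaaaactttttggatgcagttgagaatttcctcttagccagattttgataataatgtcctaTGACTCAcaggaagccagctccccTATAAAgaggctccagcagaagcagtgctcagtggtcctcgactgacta
Icam1: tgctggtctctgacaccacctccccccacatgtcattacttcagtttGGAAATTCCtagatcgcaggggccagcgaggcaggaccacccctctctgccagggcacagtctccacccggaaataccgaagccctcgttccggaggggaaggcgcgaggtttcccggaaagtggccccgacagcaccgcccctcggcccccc

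In Sele the GGANNTTCC match runs from base -145 to -137 before the start, and in Icam1 from -153 to -145. These letters were chosen after both sequences had been read, and they occur in 4.26% of the 32851 windows in the table, each of 250 bases before and 50 after the start. The 3 motifs do not overlap in either sequence. TATAAA lies from -49 to -44 in Sele and from base 14 to 19 after the annotated start in Icam1, and is found in 13.6% of windows. TGANTCA lies from -73 to -67 in Sele and occurs in 7.81% of windows. Of the other windows, those of Selp and Itgax held TGANTCA and neither of the other motifs, and those of Itga4 and Itgam held none of the 3. A looser NF-kB form, GGG and CC around any 5 bases, was searched too and not capitalised: Sele (overlapping the match above by 9 bases), Icam1 and Selp held it once and Itgam at 2 overlapping positions, and so did 50.8% of windows. A match describes the letters of these windows and is not a binding site by itself.

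Selplg encodes PSGL-1, the main selectin ligand of leukocytes. It measured 8.74, 9.34 and 9.63 in neutrophilic mice and 9.39, 8.49 and 8.67 in mixed mice. Eosinophilic mice had 4.88 (mouse 7), 8.83 and 8.52, and controls 8.32, 8.10 and 7.71. Every intranasal mouse lay above every control. So did eosinophilic mice 8 and 9, while mouse 7 lay far below every other mouse. With 12 arrays the neutrophilic difference was log2 1.19 (SE 0.79, adjusted p = 0.548). Without mouse 7 Selplg rose 2.29-fold in neutrophilic lung by the same limma test (log2 1.19, SE 0.31, adjusted p = 0.0288). The mixed difference was log2 0.80 (adjusted p = 0.250 without mouse 7). The eosinophilic one was log2 -0.63 (adjusted p = 0.556) with 12 arrays and log2 0.63 (adjusted p = 0.377) without mouse 7. Neither group was called.

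**Figure D2:**
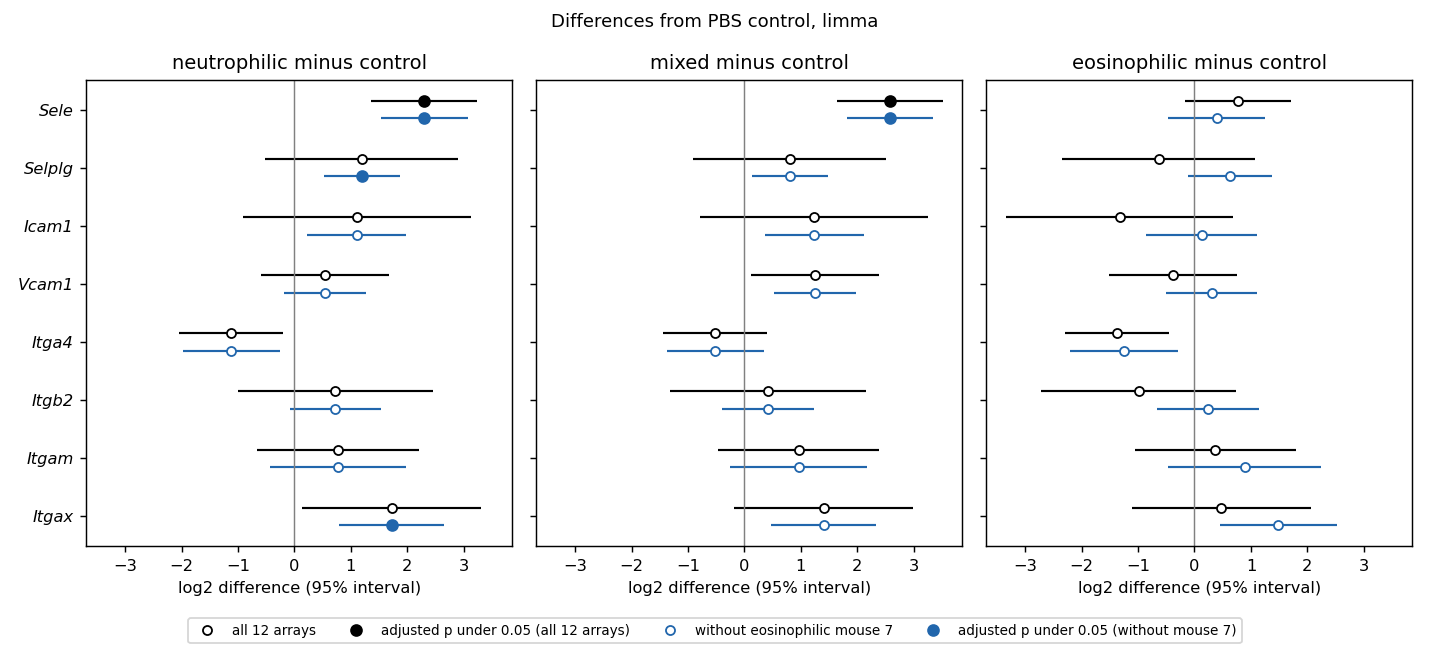
Log2 differences from PBS control with 95% intervals from limma, for neutrophilic, mixed and eosinophilic mice, with all 12 arrays (black) and without eosinophilic mouse 7 (blue); filled points have an adjusted p under 0.05. Sele is filled in the neutrophilic and mixed panels in both fits, Selplg and Itgax in the neutrophilic panel without mouse 7, and no gene in the eosinophilic panel.

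Icam1 and Vcam1 encode the endothelial ligands of leukocyte integrins, and Icam1 is made by epithelium and leukocytes as well. Icam1 measured 9.95, 10.92 and 11.75 in neutrophilic mice, with mouse 23 inside the control range, and 11.72, 10.74 and 10.56 in mixed mice. It measured 5.53 (mouse 7), 9.96 and 9.83 in eosinophilic mice and 9.75, 10.04 and 9.51 in controls. All 3 mixed mice lay above the controls, and eosinophilic mice 8 and 9 lay within the control range. The differences from control were log2 1.10 (SE 0.93, adjusted p = 0.646) in neutrophilic lung and log2 1.24 (SE 0.93, adjusted p = 0.9999) in mixed lung, neither called, and without mouse 7 the adjusted p values were 0.116 and 0.153.

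Vcam1 measured 7.68, 8.84 and 9.03 in neutrophilic mice and 9.45, 9.04 and 9.19 in mixed mice. Eosinophilic mice had 6.24 (mouse 7), 8.61 and 7.94, and controls had 8.17, 7.77 and 7.98. The mixed mice lay above all 9 other mice, the nearest being neutrophilic mouse 25 at 9.03. Vcam1 was not called in mixed lung, with log2 1.25 (SE 0.52, adjusted p = 0.522) from 12 arrays and an adjusted p of 0.0659 without mouse 7. In neutrophilic lung the difference was log2 0.54 (SE 0.52, adjusted p = 0.683), in which mouse 23 lay below all controls.

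Itgb2 encodes the beta chain that pairs with Itgal, Itgam and Itgax, so it marks leukocytes at large. It measured 8.40, 9.91 and 9.99 in neutrophilic mice and 9.32, 8.81 and 9.25 in mixed mice. Eosinophilic mice had 5.28 (mouse 7), 9.03 and 8.86, and controls 8.96, 8.87 and 8.30. Every treated group overlapped the controls, and no difference from control was called, with log2 0.73 (adjusted p = 0.716) in neutrophilic, 0.42 (0.9999) in mixed and -0.99 (0.373) in eosinophilic lung. Without mouse 7 the eosinophilic difference was log2 0.24 (adjusted p = 0.792).

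Itgam encodes CD11b of neutrophils, monocytes and eosinophils. It measured 5.51, 7.65 and 7.996 in neutrophilic mice, 7.94, 6.30 and 7.47 in mixed mice, and 5.61 (mouse 7), 7.70 and 6.65 in eosinophilic mice. Controls lay close together at 6.39, 6.198 and 6.26. In each treated group at least 1 mouse lay within or below the control range: neutrophilic mouse 23, mixed mouse 16 and eosinophilic mouse 7. No difference was called, and log2 values were 0.77 (SE 0.66, adjusted p = 0.650) in neutrophilic and 0.96 (SE 0.66, adjusted p = 0.9999) in mixed lung.

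Itgax encodes CD11c, which in mouse lung is carried by alveolar macrophages and dendritic cells. It measured 7.83, 9.74 and 9.14 in neutrophilic mice and 8.66, 7.98 and 9.11 in mixed mice. Eosinophilic mice had 5.64 (mouse 7), 8.64 and 8.69, and controls 7.58, 7.24 and 6.72. Every treated mouse except mouse 7 lay above every control. With 12 arrays no difference was called (neutrophilic log2 1.72, SE 0.73, adjusted p = 0.285). Without mouse 7 Itgax rose 3.29-fold in neutrophilic lung (limma, log2 1.72, SE 0.43, adjusted p = 0.0241). The other groups then measured log2 1.40 (mixed, adjusted p = 0.116) and log2 1.48 (eosinophilic, adjusted p = 0.155, n = 2 and 3), not called.

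Itga4 encodes the alpha chain of the VCAM-1 receptor of lymphocytes, eosinophils and monocytes, and was the 1 gene of the 8 with a lower mean than control in all 3 treated groups. It measured 6.13, 7.83 and 7.08 in neutrophilic mice, 7.78, 7.03 and 8.05 in mixed mice, 6.53 (mouse 7), 6.91 and 6.87 in eosinophilic mice, and 8.64, 7.92 and 7.85 in controls. All neutrophilic and eosinophilic mice lay below all controls. The difference was log2 -1.37 in eosinophilic lung (SE 0.42, adjusted p = 0.109), -1.12 in neutrophilic lung (SE 0.42, adjusted p = 0.217) and -0.51 in mixed lung (SE 0.42, adjusted p = 0.9999), none of them called. Without mouse 7 the eosinophilic difference was log2 -1.25 (adjusted p = 0.195). Without eosinophilic mouse 8, which leaves the 2 eosinophilic arrays of low range, the limma fit called it (log2 -1.44, adjusted p = 0.0318), and 41.5% of all genes were called in that fit.

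Counted by non-overlap with control, 3 of 8 genes (Sele, Selplg, Itgax) had all neutrophilic mice above all controls, as 12.6% of all genes did, and Itga4 had them all below, as 20.4% of all genes did. In mixed lung 5 of 8 lay wholly above (those 3 with Icam1 and Vcam1), beside 9.16% of all genes. In eosinophilic lung Itga4 alone was separate, below, as 15.9% of all genes were. Without mouse 7, with 2 eosinophilic mice left, 3 of 8 (Selplg, Itgam, Itgax) lay wholly above control, beside 14.6% of all genes, and Itga4 wholly below, beside 19.2%.

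The order of group means differed between genes. Sele averaged 7.25 ± 0.65 in neutrophilic, 7.53 ± 0.30 in mixed, 5.73 ± 0.84 in eosinophilic and 4.95 ± 0.30 in control mice (SD, n = 3 each). The intranasal groups, as neighbours in that order, differed by less than the SD of either. The eosinophilic and control groups differed by less than the eosinophilic SD and by more than the control SD. Vcam1 averaged 8.51 ± 0.73 in neutrophilic, 9.23 ± 0.20 in mixed, 7.60 ± 1.22 in eosinophilic and 7.97 ± 0.20 in control mice (SD, n = 3 each), where the mixed and neutrophilic neighbours differed by less than the neutrophilic SD. The eosinophilic Vcam1 mean was 8.28 without mouse 7, above control and not below it. Icam1 had its highest mean in mixed mice and Selplg, Itgb2 and Itgax in neutrophilic mice, with or without mouse 7. The next place changed for Itgax: it was held by mixed mice at 8.58 with all arrays, and by eosinophilic mice at 8.67 without mouse 7. For Icam1, Selplg, Itgb2 and Itgax the neutrophilic and mixed means differed by less than the neutrophilic SD (0.90, 0.45, 0.90 and 0.98, n = 3). The Icam1 order also depended on neutrophilic mouse 23. Without that mouse the neutrophilic Icam1 mean was 11.334 (n = 2), above the mixed mean of 11.005. Itga4 was highest in controls, then in mixed, neutrophilic and eosinophilic mice.

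In eosinophilic lung 0 of 8 genes were called with 12 arrays, where 0.497% of all genes were, and 1 of 8, Itga4, had an unadjusted p under 0.05, as 28.2% of all genes did. Without mouse 7 the count was again 0, with 1.33% of all genes called, and 2 of 8 (Itga4 and Itgax) had an unadjusted p under 0.05, as 16.4% of all genes did.

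Leaving out all 3 arrays of low range (eosinophilic mice 7 and 9 and neutrophilic mouse 23) moved these counts most. The limma fit then called 7 of 8 genes higher in neutrophilic lung (n = 2 and 3), all but Itga4, with log2 differences of 0.96 (Vcam1) to 2.57 (Sele), and 16% of all genes were called (5.76% as higher). In mixed lung it called 4 of 8 higher: Sele, Icam1 (adjusted p = 0.0179), Vcam1 (0.00113) and Itgax (0.00767), beside 9.32% of all genes (3.59% as higher). In eosinophilic lung, down to mouse 8 alone and assumed to vary like the other groups, it called 0 of 8, beside 2.17% of all genes. It called 0 of 8 between neutrophilic and mixed mice (0.266% of all genes) and between mixed and eosinophilic mice (0.12%), and 7 of 8 by the F test (12.7%). Cell markers moved in the same fit. In neutrophilic lung 13 of 13 neutrophil markers were higher (median log2 3.05), with 4 of 9 genes shared by all leukocytes (median 1.21). So were 3 of 7 T cell markers, 3 of 8 alveolar macrophage markers and 1 of 6 B cell markers. Of 7 monocyte markers 2 were higher and 1 lower. Lower were 9 of 13 endothelial markers (median -1.31), beside 10.2% of all genes. In mixed lung 10 of 13 neutrophil and 0 of 9 shared leukocyte genes were higher, and 8 of 13 endothelial markers lower, beside 5.73% of all genes. Their part in the result was not tested.

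The dose step was read from neutrophilic against mixed mice, which shared route and schedule and differed 7.5 against 0.75 DU. None of the 8 genes was called by limma, nor was any of the 19937 genes (0%), and 0 of 8 had an unadjusted p under 0.05, as 3.1% of all genes did. Without mouse 7 these counts were 0 of 8, 0% and 0 of 8 beside 7.32%. For Sele the difference was log2 -0.28, with a 95% interval of -1.22 to 0.66, and without mouse 7 the interval was -1.04 to 0.49. For Itgb2 it was log2 0.31 (-1.42 to 2.04, and -0.50 to 1.12 without mouse 7) and for Icam1 -0.13 (-2.15 to 1.88, and -1.01 to 0.75 without mouse 7). Vcam1 was lower in all 3 neutrophilic than in all 3 mixed mice (log2 -0.71, interval -1.84 to 0.42, adjusted p = 0.9999), where 9.37% of all genes had neutrophilic values wholly below.

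Mixed were also set against eosinophilic mice, both at 0.75 DU, which differ in route, adjuvant and schedule together, so these cannot be told apart. None of the 8 genes was called with 12 arrays, beside 0.00502% of all genes, and 3 of 8 had an unadjusted p under 0.05, against 16.7% of all genes. Those 3 were Sele (log2 1.80, SE 0.43, adjusted p = 0.295), Icam1 (2.56, SE 0.93, 0.295) and Vcam1 (1.63, SE 0.52, 0.295). Each had all 3 mixed mice above all 3 eosinophilic mice, as did Itga4, and 6.91% of all genes had that order. Without mouse 7 the 3 differences were log2 2.19 (adjusted p = 0.113), 1.11 (0.674) and 0.95 (0.673), and 0.0502% of all genes were called. Of the 3, the difference of Sele was the 1 that did not shrink. Without eosinophilic mouse 8, which leaves only the eosinophilic arrays of low range, the limma fit called all 3, with 30% of all genes called. The values were Sele log2 1.86 (adjusted p = 0.0175), Icam1 3.32 (0.0238) and Vcam1 2.13 (0.0112).

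**Figure D3:**
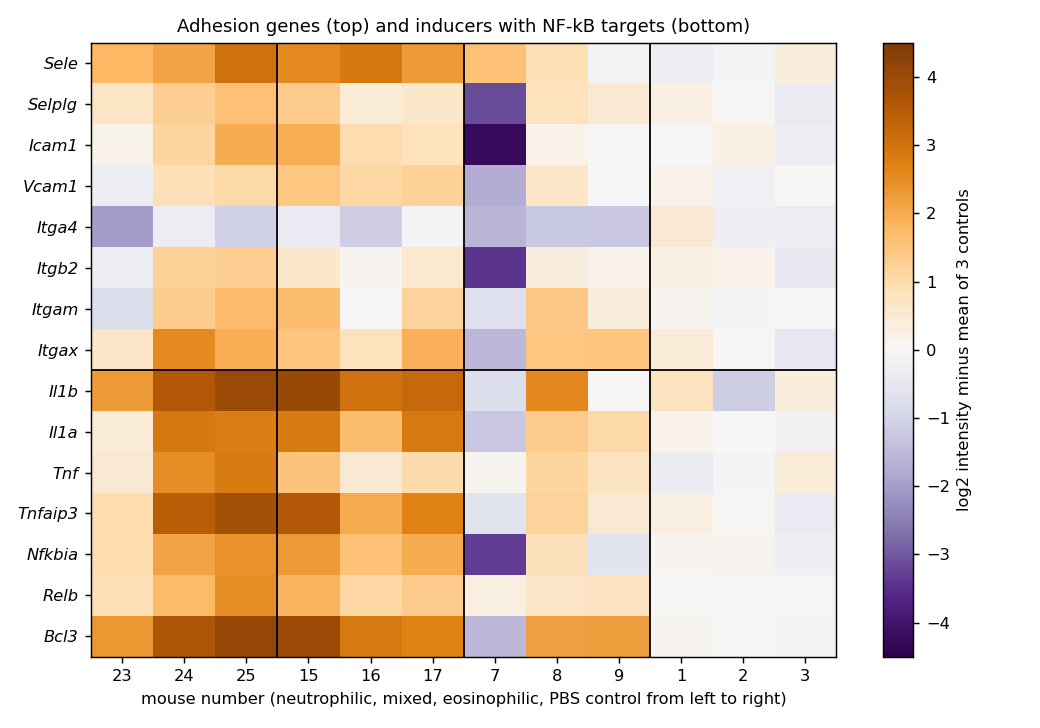
Log2 intensity minus the mean of the 3 controls for the 8 adhesion genes (above the line) and for 7 inducers and NF-kB pathway genes (below), one column per mouse, orange higher and purple lower. The neutrophilic and mixed columns are orange for Sele, Il1b and Bcl3, and the column of eosinophilic mouse 7 is purple for most genes but orange for Sele.

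Inducers of endothelial adhesion molecules and feedback genes of NF-kB formed a list of 16 measured genes. For scale, with 12 arrays 0.662% of all genes were called higher in neutrophilic and 0.326% in mixed lung. Without mouse 7 these shares were 2.24% and 1.41%, and 0.451% in eosinophilic lung. With 12 arrays 2 rose in neutrophilic lung, the cytokine Il1b (log2 3.28, SE 0.77, adjusted p = 0.0498) and the NF-kB subunit Relb (log2 1.71, SE 0.37, adjusted p = 0.0366), and 0 in mixed lung. Without mouse 7, 10 of 16 rose in neutrophilic lung: Il1b, Il1a (log2 2.05), Tnf (1.94), Relb, Nfkb2 (1.81), the I-kappa-B family members Nfkbia (1.83), Nfkbiz (1.38) and Bcl3 (3.37), the feedback inhibitor Tnfaip3 (2.76) and the apoptosis inhibitor Birc3 (1.98). Il1b measured 9.12, 10.47 and 10.86 in neutrophilic mice, 10.89, 9.92 and 10.07 in mixed mice, 6.14 (mouse 7), 9.46 and 6.87 in eosinophilic mice, and 7.63, 5.74 and 7.22 in controls. In mixed lung 8 of those 10 rose, all but Tnf (log2 1.01, adjusted p = 0.422) and Nfkbiz (log2 1.21, adjusted p = 0.0596). Among them Il1b measured log2 3.43, Il1a 2.44, Tnfaip3 2.75, Bcl3 3.19, Nfkbia 1.94, Birc3 2.18, Nfkb2 1.59 and Relb 1.42. In eosinophilic lung 1 of 16 rose, Bcl3 (log2 2.21, adjusted p = 0.0360), and Tnf measured log2 0.93 (adjusted p = 0.401). The type 2 cytokines Il4 and Il13 were not called in any group, at log2 0.53 (adjusted p = 0.529) and 0.39 (0.603) in eosinophilic lung without mouse 7. The list's median difference was log2 1.76 in neutrophilic and 1.43 in mixed lung, beside 0.94 and 1.10 for the 8 adhesion genes and 0.05 and 0.0046 for all genes.

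The other adhesion genes fell into 5 lists: 8 measured selectin ligands, 10 enzymes that decorate them, 12 other immunoglobulin adhesion molecules, 13 other integrins and 12 genes of integrin activation. With 12 arrays 0 of them were called in any of the 3 groups against control. Without mouse 7 the sialyltransferase St3gal4, which helps to build selectin ligands, rose in neutrophilic (log2 1.56, adjusted p = 0.00411) and mixed lung (log2 1.94, adjusted p = 0.00208). The hyaluronan receptor Cd44, which also binds E-selectin, rose in both (log2 1.34, adjusted p = 0.0406, and log2 1.58, adjusted p = 0.0390). The endothelial sialomucin Podxl fell in both (log2 -1.15, adjusted p = 0.0112, and -1.19, adjusted p = 0.0194), as did the sulphotransferase Chst2 (-1.13, 0.0350, and -1.38, 0.0279). The sialyltransferase St3gal6 fell in neutrophilic lung (log2 -1.16, adjusted p = 0.0117).

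In neutrophilic lung 7.23% of all genes were called lower in that fit. Pecam1, which guides leukocytes through endothelial junctions, fell (log2 -0.93, adjusted p = 0.0394), with Jam2 (-1.35, 0.0233) and Alcam (-1.13, 0.0142), making 3 of 12 in the immunoglobulin list. Icam2, the constitutive endothelial ligand of Itgal, measured log2 -0.87 (adjusted p = 0.180). The collagen-binding integrin chain Itga1 fell in neutrophilic (log2 -1.995, adjusted p = 0.00132), mixed (-1.19, 0.0456) and eosinophilic lung (-1.51, 0.0419), and Itgb1, the partner of Itga4, fell in neutrophilic lung (-1.33, 0.0130) with Itga2 (-1.14, 0.0247). In neutrophilic lung the Itgb2 partner Itgal measured log2 0.31 (adjusted p = 0.631) and Itgb7, which also pairs with Itga4, 0.08 (0.902). Of integrin activation genes the Rap regulator Sipa1l1 alone was called, lower in neutrophilic lung (log2 -1.15, adjusted p = 0.0367).

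**Figure D4:**
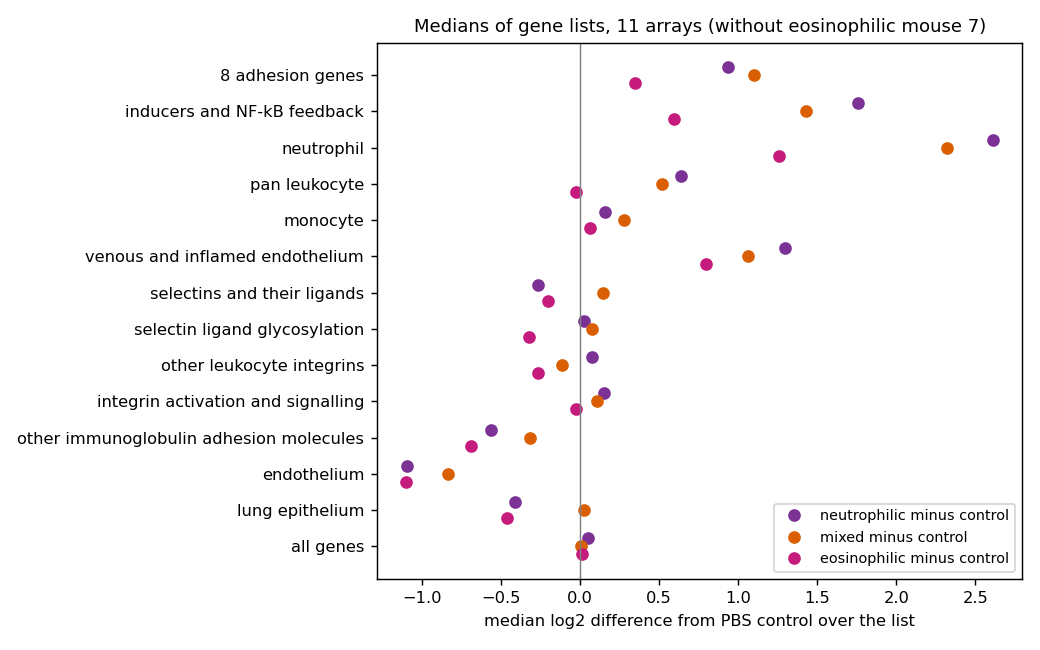
Median log2 difference from PBS control over each gene list, without eosinophilic mouse 7, for neutrophilic, mixed and eosinophilic mice. Neutrophil markers lie furthest right (2.61, 2.32 and 1.26) and endothelial markers furthest left (-1.10, -0.84 and -1.10), with all genes near 0.

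Marker lists of the cells that carry these genes moved to different degrees. Of 13 endothelial markers 0 were higher and 6 lower in neutrophilic lung without mouse 7, and 0 and 3 in mixed lung, where 7.23% and 1.57% of all genes were called lower. Their per-array medians ran from 8.18 to 8.82 in neutrophilic, 8.45 to 8.94 in mixed and 6.29 to 8.99 in eosinophilic mice, all under the control range of 9.53 to 9.61. The Sele difference therefore stood 3.40 log2 above the endothelial list's median difference in neutrophilic lung, and that of Vcam1 1.64 above. Of 8 genes for venules and inflamed endothelium 3 were higher in each intranasal group in that fit, beside 2.24% and 1.41% of all genes. In each, 1 of the 8 was lower. In eosinophilic lung 0 were called, and which lung cells made these RNAs was not tested. The higher ones were Ackr1 of venules (neutrophilic log2 1.41, adjusted p = 0.0282, mixed 1.85, 0.0145), Lrg1 (2.92, 0.00293, and 2.499, 0.0148) and Il6 (2.06, 0.0125, and 2.66, 0.00633). The lower one was Nr2f2, a transcription factor of venous identity (-1.69, 0.00262, and -1.43, 0.0144), and the venous receptor Ephb4 measured log2 -0.68 (adjusted p = 0.161) and -0.55 (0.471).

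Of 13 neutrophil markers 10 were higher in neutrophilic and 9 in mixed lung without mouse 7, beside 2.24% and 1.41% of all genes. Their per-array medians ran from 6.42 to 8.80 in neutrophilic, 7.25 to 8.31 in mixed, 5.85 to 7.04 in eosinophilic and 5.54 to 6.42 in control mice, with mouse 23 the lowest of the neutrophilic group. Eosinophilic lung had 0 of 13 called, at a median difference of log2 1.26. Of 9 genes shared by all leukocytes, such as Ptprc, 0 were called in any group with all arrays or without mouse 7, with per-array medians of 8.01 to 9.69 in neutrophilic, 8.45 to 9.34 in mixed, 5.93 to 8.98 in eosinophilic and 7.90 to 8.40 in control mice. Of 8 alveolar macrophage markers 1 was higher in neutrophilic, 2 in mixed and 1 in eosinophilic lung without mouse 7, and of 7 dendritic cell markers 0 were called in any group. Among 7 monocyte markers 1 was higher in each group with all arrays. Without mouse 7 it was 2, 1 and 1 in neutrophilic, mixed and eosinophilic lung, beside 2.24%, 1.41% and 0.451% of all genes. Among 7 T cell markers 1 was higher in each intranasal group without mouse 7, and among 6 B cell markers 0 were called. Of 8 eosinophil markers 0 were called in any group in those 2 fits, with per-array medians of 4.58 to 5.80 in neutrophilic, 4.71 to 5.22 in mixed, 5.07 to 5.52 in eosinophilic and 4.47 to 4.77 in control mice. No detection calls were used, so a low level is not shown to be absence. The part of these shifts in cell content in the adhesion results was not tested.

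Across the 11 arrays without mouse 7 the adhesion genes varied together to different degrees. Icam1 and Vcam1 correlated at r = 0.82, Sele with Icam1 at 0.83 and with Vcam1 at 0.78, Selplg with Itgax at 0.84, and Itgb2 with Itgam and Itgax at 0.83 each. Sele, Icam1 and Vcam1 correlated with Selplg, Itgb2, Itgam and Itgax at 0.48 (Sele with Itgam) to 0.84 (Icam1 with Selplg). Itga4 stood apart, with r of -0.27 to 0.20 to the other 7. With all 12 arrays Sele and Icam1 had r = 0.35, and Selplg and Icam1 had 0.97. These points share group differences and array range, so the values are a description.

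Among 11502 other genes with a mean of at least log2 5, those most like Sele over the 11 arrays were Hpx (hemopexin, a haem-binding plasma protein, r = 0.98), Tnfaip6 (a TNF-induced hyaluronan-binding protein, 0.97) and Cxcl5 (a neutrophil chemoattractant, 0.97), and with 12 arrays they still had r of 0.94 to 0.97. Icam1 was most like Il34, Sphk1 and Mat1a (r of 0.97 to 0.98), and Vcam1 most like Tnfrsf10b, Tmem154 and Map3k8 (0.95 to 0.98). Selplg was most like Mapk13, Nfkbie and Etv6 (0.97 to 0.99). Itgb2 ran with Ccn4, Apoe and Tlr7 (0.95 to 0.99), Itgam with Ppard, Ncf4 and Sh3bp2 (0.95 to 0.96), and Itgax with Lcp2, Il21r and C1qc (0.96 to 0.97). Itga4 ran with Tmem168, Dst and Crnkl1 (0.96). With mouse 7 included several of these matches were much weaker, down to r = 0.15 for Itgax and Il21r.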

How the data were processed

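RNA of 12 lungs was read on Affymetrix gene arrays. The authors deposited 1 log2 intensity per probe set and array, which the submitters' processing notes trace to RMA (background correction, quantile normalization and probe summary) run in Affymetrix's Expression Console; the sources used here give no version or option of either. The log2 base was taken from the range of the values, 2.27 to 14.93. Of 34760 probe sets 22961 carried a gene in the platform annotation: 21640 a single symbol, and 1321 several. The probe set of highest mean stood for each of 19937 genes. A linear model with 4 group means was fitted to all 12 arrays in limma 3.58.1 under R 4.3.3 (lmFit, eBayes without trend), with no covariates, as the labels name no batch. P values are two-sided, adjusted over all genes by Benjamini-Hochberg, and intervals are at 95%. The 3 mice a group limit the precision, and p values measure the spread between those mice. The fit was tested on simulated data whose spread came from the control and mixed groups alone. That test did not cover arrays of low range. Alternatives left out each array, or the 3 of low range, recentred or requantiled the arrays, filtered dim genes, changed the eBayes options, fitted only the groups compared, or averaged probe sets. A comparison was refitted without each array of its own groups and without eosinophilic mouse 7, but not without other arrays. The F test was refitted without each array. The 9 genes, gene lists and alternatives were chosen with earlier results of these data known. The text names the 9 genes, genes of the adhesion and inducer lists past the threshold with all arrays or without mouse 7, fixed partners and inducers, and the 3 genes of highest Pearson correlation with each adhesion gene. Of the listed genes 12, Selp among them, had no single-symbol probe set. Promoters come from a RefSeq table and motifs were found by script.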

Additional observations from a re-analysis of the deposited data

How the results depend on the processing

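Of 544 refits of single genes 487 kept their direction and their side of the threshold, 20 newly passed it, 14 lost it and 23 turned sign, none of the 23 called in either fit. The number of adhesion genes called in neutrophilic lung was 1 of 8 in the planned fit and 7 without the 3 arrays of low range (16% of all genes called). It was 3 with only the 2 groups compared (10.7%) and 0 after quantile normalization (1.24%). With 1 array of these groups or mouse 7 left out it was 0 to 3 (0.0853% to 9.47%). The 3 came without mouse 7, where 9.47% of all genes were called. In mixed lung it was 1, then 4 (9.32%), 4 (8.47%), 0 (0.431%) and 0 with arrays centred on their median (0.115%). With 1 array left out in the same way it was 0 to 1 (0.0301% to 2.99%). In eosinophilic lung it was 0 in the planned fit and 0 to 1 when 1 array was left out (0.00502% to 41.5% of all genes called). In mixed against eosinophilic mice it was 0 in the planned fit and 0 to 3 when 1 array was left out (0% to 30%). By the F test it was 1 in the planned fit (0.883% of all genes called). It was 0 after centring or quantile normalization and 0 to 2 when 1 array was left out. The share of all genes called by the F test in those alternatives was not recorded, so these counts cannot be set against it. With centring the median difference over all genes was log2 -0.24 in eosinophilic against control mice and 0.19 in mixed against eosinophilic mice. The cause of these moves was not tested. Signs turned in eosinophilic against control mice. Without the 3 arrays Selplg measured log2 0.79, Icam1 0.19, Vcam1 0.64 and Itgb2 0.32, and Vcam1 0.21 after quantile normalization. With 1 array left out the ranges were -1.35 to 0.63 for Selplg, -2.09 to 0.13 for Icam1, -0.88 to 0.30 for Vcam1, -1.64 to 0.24 for Itgb2, -0.15 to 0.89 for Itgam and -0.043 to 1.48 for Itgax. In neutrophilic against mixed mice Icam1 measured 0.33 and Itgam 0.58 without the 3 arrays, and Icam1 0.0073 after quantile normalization, and with 1 array left out the ranges were -0.57 to 0.33 for Icam1, -0.66 to 0.58 for Itgam and -0.099 to 0.86 for Itgax. In mixed against eosinophilic mice Itgam measured -0.46 and Itgax -0.059 without the 3 arrays, and Itgax -0.083 to 1.44 with 1 array left out. No paired analysis was possible because the groups share no replicate numbers.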
